A study of Mus musculus with 6 samples.

Results

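The enzymes that break down the branched-chain amino acids leucine, isoleucine and valine were described in the gastrocnemius of mice whose tumour had been irradiated and of mice left untreated. The group held 10 genes, taken by name from a list chosen with earlier results of these data known. Each gene matched 1 of the 55995 features of the gene table. In the radiotherapy group (3 libraries), a tumour of about 800 mm3 on the left flank was given 10 Gy (6 MV X-rays, 6 Gy each minute), and the calf muscle of the opposite side was collected 3 days afterwards. In the control group (3 libraries) the tumour was not irradiated, and no tumour size or collection time is given. All mice were NSG, a strain without mature T, B or NK cells, and all carried a subcutaneous xenograft of wild-type MDA-MB-231, a line derived from a human breast cancer. The age and sex of the mice are not stated. Nothing in the labels says that each library came from its own mouse, so p-values rest on the spread among these 6 libraries, part of which may be technical.

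Skeletal muscle is the main site of the first step of this pathway, since the liver has little of the transaminase. The amino group is moved to 2-oxoglutarate, and the branched-chain ketoacid dehydrogenase complex in the mitochondrial matrix then removes the carboxyl group and joins the rest to coenzyme A, which commits the carbon to breakdown. A kinase switches the complex off by phosphorylating its decarboxylase and a phosphatase switches it on again. Separate enzyme series then take the leucine, valine and isoleucine products to acetyl-CoA, acetoacetate or propionyl-CoA.

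Expression is given as TPM, a transcript level per length and relative to all transcripts of the library, so genes can be compared with each other and every library has the same total. Muscle identity was clear in every library, with Ckm, the muscle creatine kinase, at 19323 to 25645 TPM in the radiotherapy and 20738 to 23546 TPM in the control libraries. The 20 most abundant genes took 50.5%, 52.1% and 30.3% of the total in radiotherapy replicates 1, 2 and 3 and 37.8%, 33.0% and 42.6% in control replicates 1, 2 and 3. Across tested features, radiotherapy replicates 1 and 2 had a Spearman correlation of 0.947 with each other. Radiotherapy replicate 3 stood apart, at 0.795 with each of these and 0.847 to 0.862 with the control libraries. The summed level of 9 neutrophil markers was 2945 TPM in it, while radiotherapy replicates 1 and 2 had 11.0 and 18.4 TPM, and the control libraries 73.6 to 183 TPM. Control replicate 2 had little slow-fibre RNA, with 7 slow-fibre markers summing to 80.6 TPM against 976 and 1316 TPM in control replicates 1 and 3. In radiotherapy replicates 1, 2 and 3 that sum was 1008, 1887 and 228 TPM. In such bulk samples, fewer cells of a type and less RNA per cell cannot be told apart.

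All 10 genes had a lower mean in the radiotherapy than in the control muscles, at 32.9% to 80.6% of the control mean, and none passed the test across all features. The genes whose groups did not overlap were Dbt, Hibch, Hibadh and Bckdhb, each with its highest radiotherapy value below its lowest control value. These 4 of the 9 tested genes stand beside 19.3% of all tested features that were lower without overlap, and 0 of 9 were higher without overlap, beside 1.73%. The count was 7 of the 9 tested members without control replicate 3, beside 26.9% of features, and 7 without radiotherapy replicate 3, beside 58.8%. The comparison, limma on log2(TPM + 1) with Benjamini-Hochberg adjustment, covered the 9 genes whose mean reached 1 TPM, which Ppm1k did not. No tested member reached an adjusted p of 0.05, beside 0.0586% of features in either direction. At an unadjusted p under 0.05, Dbt, Hibch and Hibadh were lower, beside 13.3% of features. All 9 tested members had a log2 difference below 0 (7 of them with median-of-ratios scaling or quantile normalisation), as did 78.5% of features, and their median was -0.66 against -0.36 for all features. Without control replicate 2 these medians were -0.39 and -0.38, with 5 of the 9 members below the median of all features. Members are therefore read here against a table in which most features lay lower in the radiotherapy libraries.

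**Figure D1:**
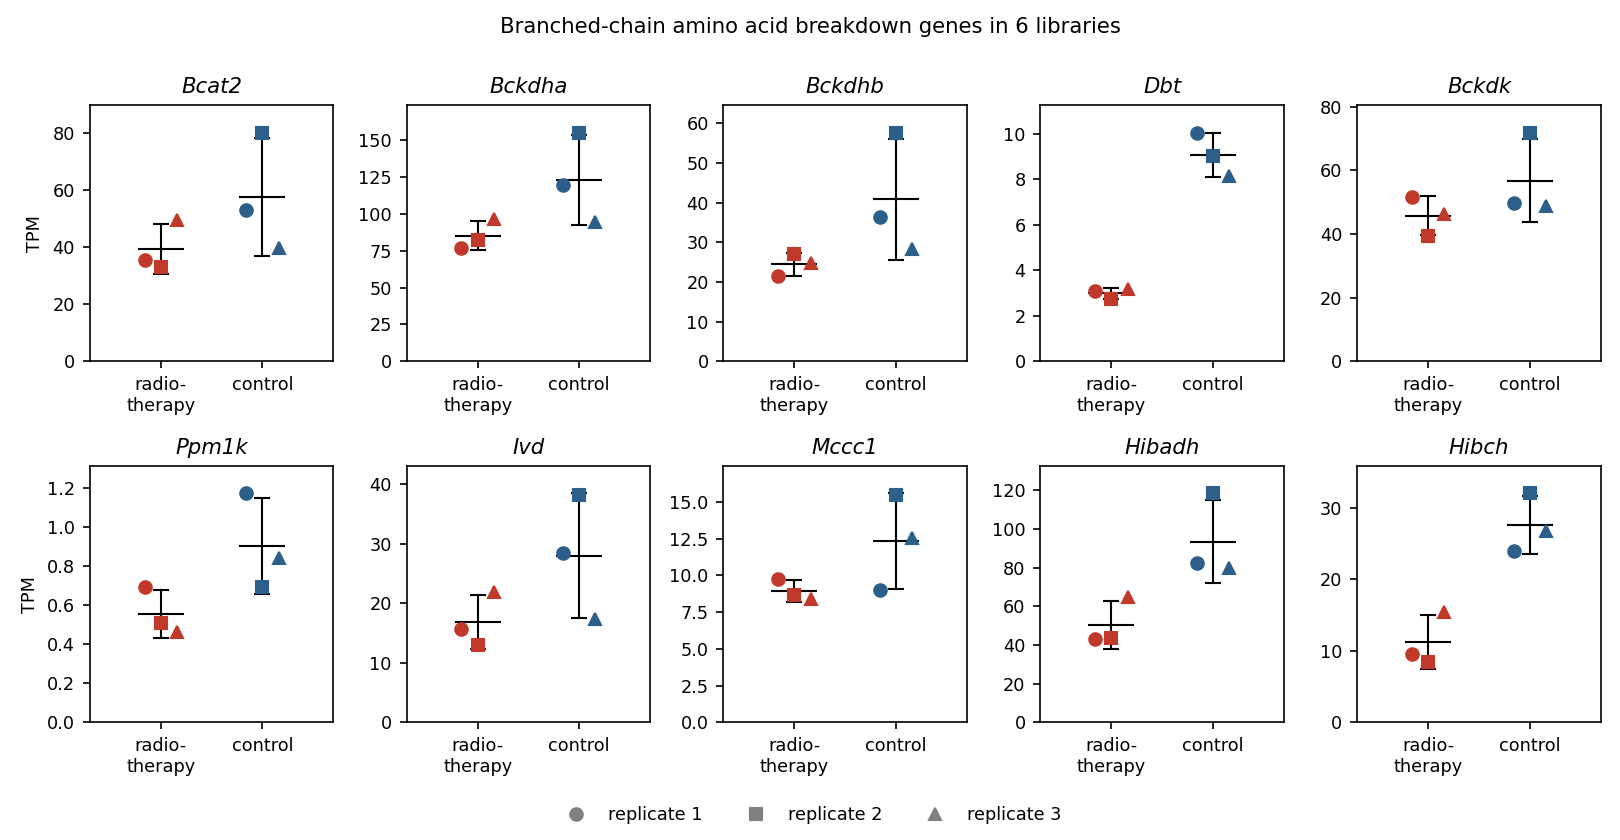
Levels in TPM (vertical axes, starting at 0, with a scale of their own) of the 10 genes in 3 radiotherapy (left, red) and 3 control (right, blue) libraries. Symbols mark the replicate number, and bars show the mean and SD. The groups stand apart without overlap for Dbt, Hibch, Hibadh and Bckdhb.

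The DNA around the starts of some members is shown first. For 9 of the 10 genes, all but Dbt, the RefSeq table of build GRCm38.p6 held a promoter window, 250 bases before to 50 bases after the start. Printed here are the valine-branch pair Hibadh (chr6:52640251-52640550, minus strand) and Hibch (chr1:52844788-52845087, plus strand), the dehydrogenase subunit Bckdhb (chr9:83924887-83925186, plus strand, the first of 2 listed starts), all without overlap between the groups. Bckdk (chr7:127903823-127904122, plus strand) is shown beside them as the tested member with the smallest difference. Positions belong to GRCm38.p6 and not to mm9, the build that the submitters' processing notes name. Capitals mark matches on either strand to CCAAT, to TGCGCA (the core of the NRF1 motif), to CCACCC (a KLF-type motif) or to AAGGTCA (an ERR half-site), and no base is shared by 2 matches (0 in each window).
Hibadh: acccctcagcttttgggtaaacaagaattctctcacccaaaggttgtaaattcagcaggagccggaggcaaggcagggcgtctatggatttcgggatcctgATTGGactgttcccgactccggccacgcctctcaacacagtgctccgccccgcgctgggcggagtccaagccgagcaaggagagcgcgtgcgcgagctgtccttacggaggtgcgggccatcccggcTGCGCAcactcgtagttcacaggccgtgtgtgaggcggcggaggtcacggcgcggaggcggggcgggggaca
Hibch: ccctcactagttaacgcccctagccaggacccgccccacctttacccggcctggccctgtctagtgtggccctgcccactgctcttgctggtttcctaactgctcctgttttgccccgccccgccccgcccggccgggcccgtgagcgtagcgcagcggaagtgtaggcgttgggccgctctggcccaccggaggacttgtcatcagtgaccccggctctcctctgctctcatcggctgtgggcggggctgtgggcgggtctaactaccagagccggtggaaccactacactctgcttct
Bckdhb: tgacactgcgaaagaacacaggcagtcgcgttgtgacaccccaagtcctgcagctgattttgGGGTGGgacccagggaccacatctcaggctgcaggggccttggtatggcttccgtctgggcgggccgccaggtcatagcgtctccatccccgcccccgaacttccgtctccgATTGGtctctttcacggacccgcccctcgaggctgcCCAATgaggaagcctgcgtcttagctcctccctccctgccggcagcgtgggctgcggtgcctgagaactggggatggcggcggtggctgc
Bckdk: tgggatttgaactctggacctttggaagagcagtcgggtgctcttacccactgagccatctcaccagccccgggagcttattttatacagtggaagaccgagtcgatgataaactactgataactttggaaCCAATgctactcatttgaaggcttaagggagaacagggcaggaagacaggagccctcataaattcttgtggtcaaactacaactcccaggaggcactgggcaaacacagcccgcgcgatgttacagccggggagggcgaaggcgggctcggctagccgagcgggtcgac

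These windows differ in composition. GC content was 64.0% in Hibadh, 66.3% in Hibch, 65.0% in Bckdhb and 54.0% in Bckdk, against a median of 52.7% over the 32851 windows of the table. CpG pairs numbered 28, 20, 20 and 14, against a median of 7. The 7 member windows not printed held 37.3% to 54.0% GC and 2 to 16 CpG pairs, the lowest of both being the window at the other listed start of Bckdhb. The Hibadh window held 1 TGCGCA and 1 CCAAT match, the Bckdhb window 2 CCAAT and 1 CCACCC match, the Bckdk window 1 CCAAT match, and the Hibch window none of the letters searched. Of the 11 member windows, 7 held CCAAT, 4 CCACCC, 1 TGCGCA and 0 AAGGTCA. Over all windows the shares were 37.4% for CCAAT, 31.5% for CCACCC, 7.76% for TGCGCA and 4.72% for AAGGTCA. Whether base content or these motifs relate to the differences in expression was not tested.

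The first step is catalysed by Bcat2, the mitochondrial branched-chain aminotransferase. It measured 35.6, 32.8 and 49.4 TPM in radiotherapy replicates 1, 2 and 3, against 53.1, 80.0 and 39.6 TPM in control replicates 1, 2 and 3. The groups overlapped, because radiotherapy replicate 3 lay above control replicate 3. The log2 difference was -0.50 (95% interval -1.32 to 0.31, limma adjusted p = 0.49), and it was -0.044 with median-of-ratios scaling and -0.10 with quantile normalisation. Its cytosolic counterpart Bcat1, which is used mainly outside muscle, was at most 0.42 TPM in any library.

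In the dehydrogenase complex, the transacylase core Dbt showed the widest separation of the 10 genes. Its level was 3.08, 2.72 and 3.16 TPM in the radiotherapy libraries, against 10.1, 9.02 and 8.13 TPM in the control libraries. The libraries within each group lay close together, and radiotherapy replicate 3 stood with the other 2 radiotherapy libraries. Its mean was 2.99 ± 0.234 TPM in radiotherapy and 9.07 ± 0.961 TPM in control muscle (SD, n = 3 each). The log2 difference was -1.33 (SE 0.22, 95% interval -1.86 to -0.81), with an unadjusted p of 5.46e-04 in limma and an adjusted p of 0.186. Of all tested features, 3.43% had a more negative difference.

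Bckdha and Bckdhb encode the alpha and beta subunits of the decarboxylase that Dbt binds. Bckdha was the most abundant of the 10 genes, with 77.1, 82.3 and 96.7 TPM in the radiotherapy muscles against 120, 155 and 94.5 TPM in control replicates 1, 2 and 3. Here too radiotherapy replicate 3 lay above control replicate 3, and the log2 difference was -0.50 (95% interval -1.19 to 0.18, limma adjusted p = 0.429). Without control replicate 2 it was -0.32, with quantile normalisation -0.12 and with median-of-ratios scaling -0.034. Bckdhb had 21.4, 27.1 and 24.7 TPM in the radiotherapy muscles, against 36.4, 57.7 and 28.3 TPM in control. Its groups did not overlap, with a narrow gap between radiotherapy replicate 2 and control replicate 3. The log2 difference was -0.66 (95% interval -1.44 to 0.11, limma adjusted p = 0.388), and it was -0.21 with median-of-ratios scaling and -0.24 with quantile normalisation. The fourth component, Dld, a dehydrogenase that this complex shares with the pyruvate and oxoglutarate dehydrogenases, was at 36.7, 39.2 and 43.8 TPM against 64.9, 55.1 and 77.4 TPM in control.

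Ratios of partner genes within a library do not depend on how that library was scaled. Dbt stood at 0.0399, 0.0330 and 0.0327 of the Bckdha level in the radiotherapy libraries, against 0.0840, 0.0581 and 0.0860 in control. All 3 radiotherapy ratios were lower than every control ratio, with mean log2 ratios of -4.83 ± 0.16 and -3.74 ± 0.32 (SD, n = 3 each) and a difference of -1.09. The exact permutation test, two-sided, gave p = 0.1, the smallest that 3 libraries against 3 allow, and 0.4 adjusted over the 4 ratios tested. Bckdha was 3.60, 3.04 and 3.91 times the Bckdhb level in the radiotherapy and 3.29, 2.69 and 3.34 times in the control libraries. These overlapped (difference 0.18 on the log2 scale, exact permutation p = 0.4, adjusted p = 0.667).

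**Figure D2:**
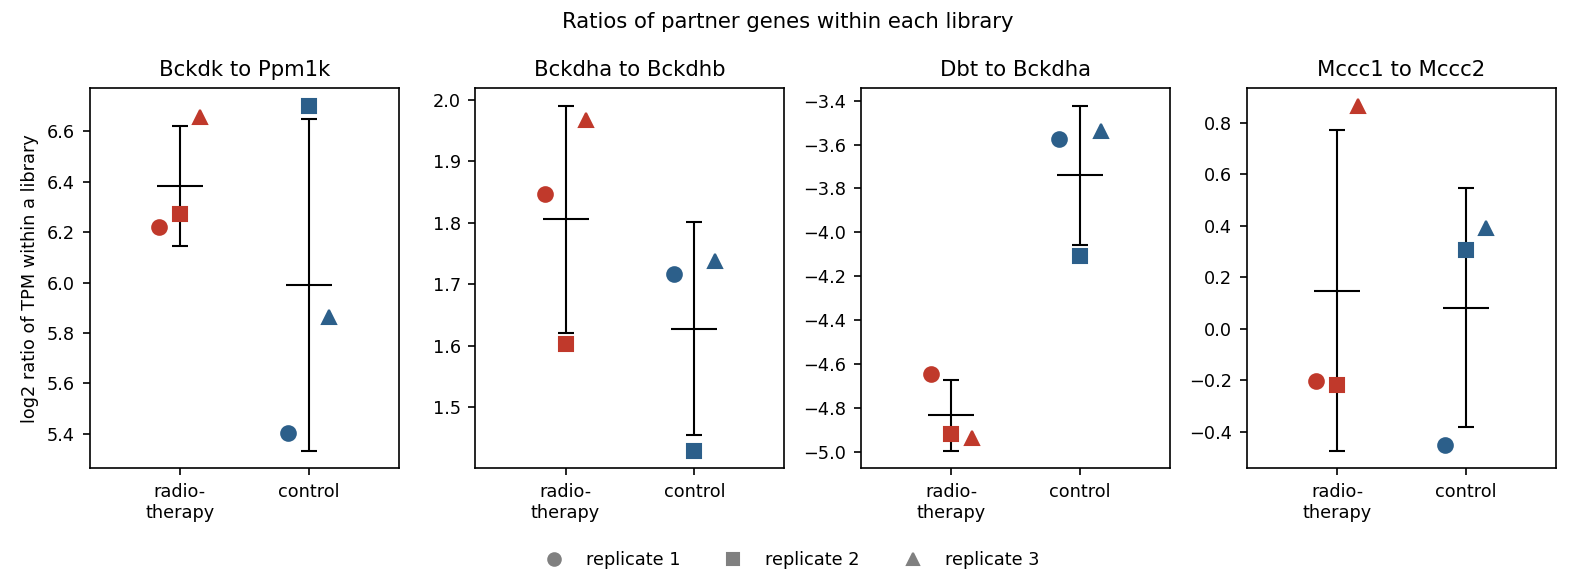
Log2 ratios of TPM within each library (vertical axes) for 4 pairs of partner genes, radiotherapy at left in red and control at right in blue. Bars show the mean and SD of 3 libraries. The Dbt to Bckdha ratio is the pair without overlap between the groups, with mean log2 ratios of -4.83 and -3.74.

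Bckdk, the kinase that inactivates the complex, had the smallest difference of the tested members. It measured 51.5, 39.4 and 46.4 TPM in the radiotherapy muscles, against 49.6, 71.8 and 48.9 TPM in control. Radiotherapy replicate 1 lay above 2 of the control libraries. The log2 difference was -0.29 (95% interval -0.96 to 0.38, limma adjusted p = 0.606), and it was 0.17 with median-of-ratios scaling. Ppm1k, the mitochondrial phosphatase that reactivates the complex, was the least abundant, at 0.69, 0.51 and 0.46 TPM in the radiotherapy and 1.17, 0.69 and 0.84 TPM in the control libraries. Its groups met at 0.69 TPM. With no filter on low values the log2 difference of Ppm1k was -0.29 (95% interval -0.74 to 0.17, limma adjusted p = 0.686). The Bckdk level was 74.6, 77.3 and 101 times that of Ppm1k in the radiotherapy and 42.4, 104 and 58.2 times in the control libraries. These ratios overlapped (exact permutation p = 0.5, adjusted p = 0.667). They rest on Ppm1k levels near or under 1 TPM, with a log2 difference of 0.39 between the groups that became -0.0042 when 1 TPM was added to both genes.

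In the leucine branch, both members overlapped between the groups. Ivd, isovaleryl-CoA dehydrogenase, measured 15.7, 12.9 and 21.8 TPM in the radiotherapy muscles, against 28.3, 38.2 and 17.3 TPM in control. The lowest control library, replicate 3, lay below radiotherapy replicate 3, and the log2 difference was -0.66 (95% interval -1.53 to 0.21, limma adjusted p = 0.417). Without control replicate 2 it was -0.41, with quantile normalisation -0.25 and with median-of-ratios scaling -0.21. Mccc1, the biotin-carrying subunit of methylcrotonyl-CoA carboxylase, was at 9.75, 8.67 and 8.37 TPM, against 9.0, 15.5 and 12.6 TPM in control replicates 1, 2 and 3. Radiotherapy replicate 1 was above control replicate 1. The log2 difference was -0.40 (95% interval -1.05 to 0.25, limma adjusted p = 0.49), and 0.033 with median-of-ratios scaling. Its partner subunit Mccc2 was at 11.2, 10.1 and 4.59 TPM against 12.3, 12.5 and 9.57 TPM, and the Mccc1 to Mccc2 ratio ran from 0.859 to 1.82 in the radiotherapy and from 0.731 to 1.31 in the control libraries (exact permutation p = 1). Auh, the hydratase of the next step, was at 26.5 to 34.4 TPM against 34.7 to 55.0 TPM. It was thus lower without overlap, by a narrow gap, and overlapped with median-of-ratios scaling (log2 difference -0.075).

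The valine branch held 2 further members without overlap. Hibch, the hydrolase that frees 3-hydroxyisobutyrate from coenzyme A, had 9.60, 8.48 and 15.5 TPM in the radiotherapy muscles, against 24.0, 32.0 and 26.7 TPM in control. The highest radiotherapy library was replicate 3, still below every control library. Hibch averaged 11.2 ± 3.75 TPM in radiotherapy and 27.6 ± 4.06 TPM in control muscle (SD, n = 3 each), a log2 difference of -1.26 (SE 0.30, 95% interval -1.98 to -0.54). The unadjusted p was 0.00426 and the adjusted p 0.258 in limma, and 4.09% of features had a more negative difference.

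Hibadh, the dehydrogenase that oxidises 3-hydroxyisobutyrate, had 43.2, 43.5 and 64.9 TPM in the radiotherapy muscles, against 82.3, 118 and 79.8 TPM in control. Replicate 3 was again the highest of the radiotherapy group and below the lowest control. The log2 difference was -0.88 (SE 0.31, 95% interval -1.60 to -0.15), with an unadjusted p of 0.0244 and an adjusted p of 0.321 in limma. Both other valine enzymes also lay lower without overlap, beside 19.3% of all tested features. Acad8, isobutyryl-CoA dehydrogenase, was at 7.33 to 9.76 TPM against 11.8 to 15.7 TPM. The Acad8 groups overlapped with median-of-ratios scaling (log2 difference -0.17) and with quantile normalisation (-0.19). Aldh6a1, which turns methylmalonate semialdehyde into propionyl-CoA, measured 10.4, 10.6 and 11.2 TPM in the radiotherapy muscles against 37.3, 26.8 and 37.4 TPM in control. Its log2 difference was -1.55 (SE 0.26, unadjusted p 5.17e-04, limma adjusted p = 0.183). Whether the valine and leucine branches differ from each other was not tested.

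The rest of the pathway was read from a list of 14 other enzymes, of which 13 passed the filter and Bcat1 did not. None of the 13 passed the limma test over all features. In limma 7 were lower at an unadjusted p under 0.05, beside 13.3% of all features. Without overlap 10 were lower, beside 19.3% of all features, or 4 with median-of-ratios scaling, beside 8.99%. Their median log2 difference was -0.60. Among enzymes of the isoleucine branch and those shared between branches, Acadsb, the short branched-chain acyl-CoA dehydrogenase, had 21.9, 20.1 and 41.2 TPM in the radiotherapy muscles against 60.6, 56.6 and 48.3 TPM in control. Echs1, a hydratase shared with fat oxidation, was at 38.0, 35.3 and 78.6 TPM against 117, 131 and 90.1 TPM. In both genes radiotherapy replicate 3 lay nearer to the controls than replicates 1 and 2. Acat1, the thiolase that ends the isoleucine branch, was at 44.7 to 51.5 TPM against 71.5 to 88.6 TPM, and Hsd17b10 at 101 to 123 TPM against 132 to 189 TPM. In the propionyl-CoA steps, Mmut, methylmalonyl-CoA mutase, was at 3.30, 4.64 and 9.09 TPM against 15.1, 10.9 and 15.4 TPM. Pcca, the biotin-carrying subunit of propionyl-CoA carboxylase, was the exception to the direction among the 13, with 24.7, 24.5 and 9.77 TPM in radiotherapy replicates 1, 2 and 3 against 12.6, 18.2 and 14.6 TPM. With median-of-ratios scaling Mcee (0.15), Pccb (0.025) and Mccc2 (0.0019) lay above 0 as well. The Pcca partner Pccb was at 17.1 to 21.2 TPM against 24.2 to 28.0 TPM, and Mcee at 62.0 to 81.1 TPM against 79.7 to 109 TPM.

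**Figure D3:**
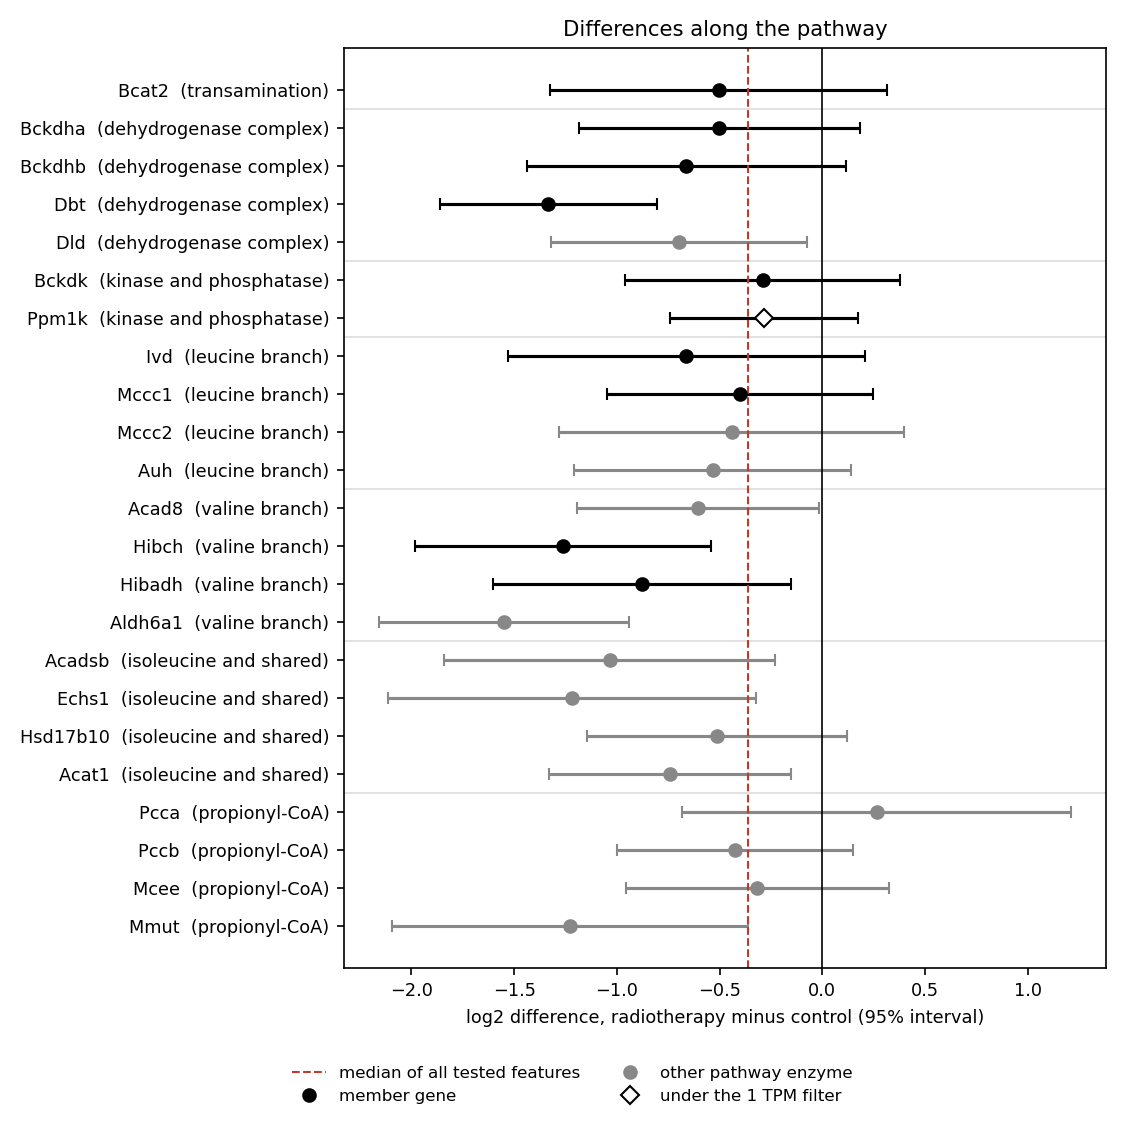
Log2 differences, radiotherapy minus control, with 95% intervals from limma (horizontal axis) for the 10 member genes (black) and other enzymes of the pathway (grey), ordered by step. Open diamonds mark a gene under the 1 TPM filter, fitted without it, and the dashed line marks the median of all tested features, -0.36. Dbt, Hibch and Aldh6a1 lie farthest to the left, and Pcca lies to the right of 0. Bcat1 is not drawn.

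Carriers bring the amino acids into the fibre and then into the mitochondrion. Of 7 listed, 6 were tested, none passed over all features and 2 were lower without overlap, beside 19.3% of all features. Without radiotherapy replicate 3 all 6 were lower without overlap, beside 58.8%, and 3 passed in limma, beside 27.6%. Slc25a44, the mitochondrial branched-chain amino acid carrier, measured 4.19, 3.48 and 5.90 TPM in the radiotherapy muscles against 11.3, 11.9 and 6.53 TPM in control. Slc7a8, a light chain of the plasma membrane exchanger, was at 2.41 to 3.58 TPM against 5.34 to 8.55 TPM. Slc7a5, another light chain, was at 0.75, 0.72 and 3.52 TPM against 4.07, 3.58 and 1.74 TPM, and its heavy chain Slc3a2 was at 26.6, 19.3 and 104 TPM against 43.2, 55.8 and 26.8 TPM. In both, radiotherapy replicate 3 was far above replicates 1 and 2. Of 6 listed regulators, 5 were tested and 0 were without overlap, beside 19.3% of all features lower and 1.73% higher. Their median log2 difference was -0.85. Without radiotherapy replicate 3, 2 of the 5 were lower without overlap, beside 58.8% of features. The count was also 2 without control replicate 2, beside 29.3%. Klf15, a factor known to drive Bcat2 in muscle, was at 15.9, 14.8 and 38.9 TPM against 50.4, 43.3 and 32.2 TPM. Ppargc1a, a coactivator of mitochondrial genes, was at 0.79 to 1.10 TPM against 1.10 to 5.68 TPM, and Esrra, the nuclear receptor it works with, at 13.3 to 30.0 TPM against 19.4 to 31.6 TPM.

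Amino groups taken from the branched chains leave the muscle mainly as glutamine and alanine. Of 8 enzymes of this hand-off, 5 were lower without overlap, beside 19.3% of all features, and none passed over all features. With median-of-ratios scaling 1 was lower without overlap, beside 8.99%. Gpt2, the mitochondrial alanine aminotransferase, had 46.2, 43.7 and 34.3 TPM in the radiotherapy muscles against 68.2, 68.8 and 65.9 TPM in control. Glul, glutamine synthetase, was at 109, 126 and 365 TPM against 532, 802 and 389 TPM, with radiotherapy replicate 3 just under the lowest control.

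Other genes of mitochondrial metabolism were set beside the members to see where these differ. Of 12 tested genes of the pyruvate and oxoglutarate dehydrogenases, a list that also holds Dld, 7 were lower without overlap, with a median log2 difference of -0.66. Of 15 citrate cycle genes 8 were lower without overlap, with a median of -0.41, and of 15 beta-oxidation genes 9, with a median of -0.58. None of these genes passed over all features. With median-of-ratios scaling the counts were 3 of the dehydrogenase genes, 1 of the citrate cycle genes, whose median then turned to 0.035, and 2 of the beta-oxidation genes. The members stood at 4 of 9 tested with a median of -0.66, beside 19.3% of all features, and at 3 of 9 with that scaling, beside 8.99%. Without control replicate 2 the medians were -0.39 for the members, -0.62 for the other pathway enzymes, -0.72 for the dehydrogenases, -0.37 for the citrate cycle and -0.62 for beta-oxidation. Dlat, the transacylase core of the pyruvate dehydrogenase, was at 15.7 to 18.1 TPM in the radiotherapy and 27.0 to 29.1 TPM in the control libraries, a log2 difference of -0.68 (limma adjusted p = 0.318). Dlst, that of the oxoglutarate dehydrogenase, was at 65.5 to 80.1 TPM against 78.1 to 89.1 TPM and was named after its values were seen. The corresponding value for Dbt was -1.33, and the difference between these cores was not tested. Cpt1b, the entry enzyme of mitochondrial fat oxidation, was at 38.6 to 46.3 TPM against 91.9 to 96.9 TPM, and Sdha at 67.3 to 77.0 TPM against 112 to 149 TPM.

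**Figure D4:**
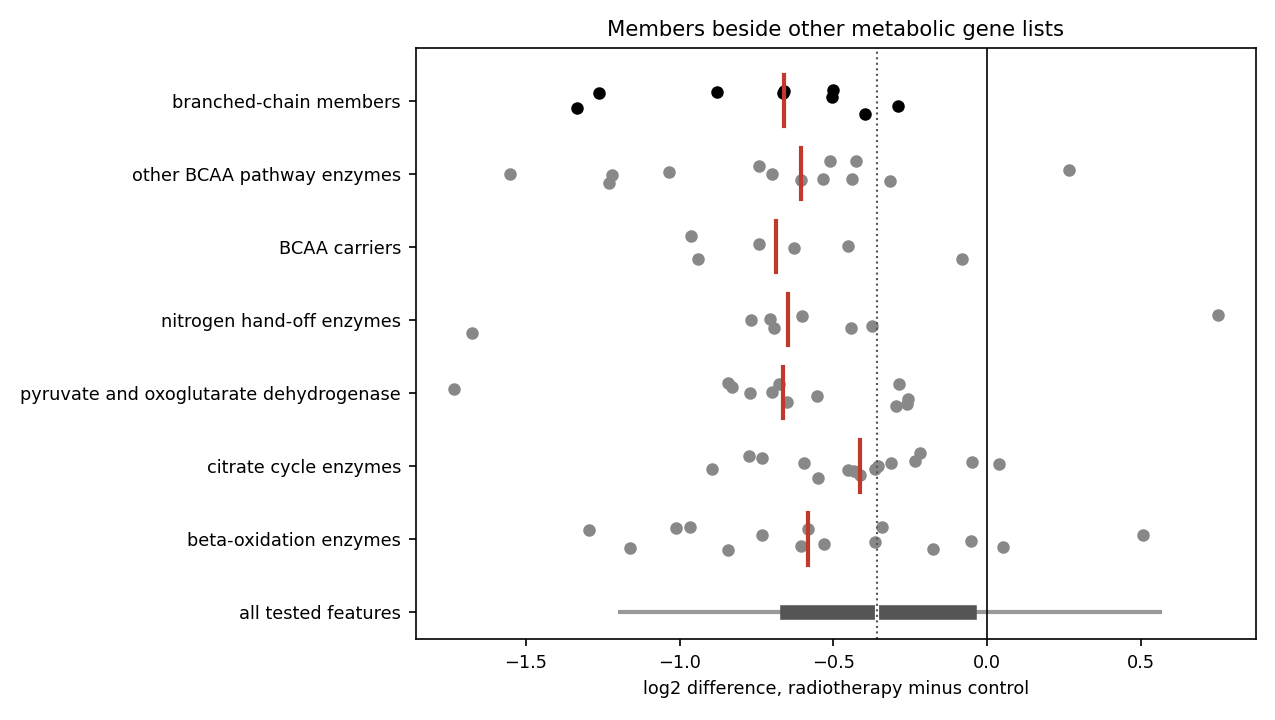
Log2 differences, radiotherapy minus control (horizontal axis), of each tested gene (points) in 7 lists, with the list median as a red bar. The bottom row shows all tested features by the range from the 5th to the 95th percentile (thin), the quartiles (thick) and the median (white mark and dotted line, -0.36). The member median lies at -0.66.

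Libraries of the same group did not rank the members alike. Control replicate 2 was the highest of all 6 libraries for 8 of the 10 genes, the exceptions being Dbt and Ppm1k, which were highest in control replicate 1. Control replicate 3 was the lowest of its group for 7 genes. Within the radiotherapy group, replicate 3 was the highest for 6 genes and the lowest for 2, Mccc1 and Ppm1k. The 10 genes summed to 268, 258 and 331 TPM in the radiotherapy libraries and to 414, 578 and 357 TPM in control. Control replicate 2 was the control library with little slow-fibre RNA, and radiotherapy replicate 3 had the lowest such sum of its group. Without control replicate 2, the log2 difference went to -0.24 for Bcat2, -0.39 for Bckdhb and -0.11 for Bckdk. In that setting Dbt stayed at -1.33 and Hibch was at -1.15. Adipocyte RNA, from a tissue that also breaks down these amino acids, overlapped between the groups, with 8 markers summing to 460 to 820 TPM in the radiotherapy and 319 to 675 TPM in the control libraries. Of 8 fibroblast markers, which summed to 117 to 178 TPM in the radiotherapy and 130 to 199 TPM in the control libraries, 3 were higher without overlap, beside 1.73% of features. Col1a1 averaged 9.22 TPM in radiotherapy and 1.81 TPM in control muscle. Col3a1 averaged 15.99 TPM in radiotherapy and 3.86 TPM in control, and Pi16 8.27 TPM in radiotherapy and 4.11 TPM in control. Dcn and Cd34, the 2 fibroblast markers with a log2 difference below 0 (-0.49 and -0.36), overlapped between the groups. Dcn averaged 89.08 TPM in radiotherapy and 126.99 TPM in control muscle, and Cd34 13.75 TPM in radiotherapy and 17.98 TPM in control. Of 5 tested erythroid markers, Hba-a1 and Alas2 were higher without overlap, beside 1.73% of features. The 7 listed erythroid markers summed to 847 to 1307 TPM in the radiotherapy and 312 to 1396 TPM in the control libraries, which overlapped. Hba-a2, the 1 tested erythroid marker with a log2 difference below 0, averaged 230 TPM in radiotherapy and 273 TPM in control muscle. These markers other than Col1a1 were named after their values were seen, and none passed in limma. The part of fibre type and of neutrophil, adipocyte, fibroblast or erythroid RNA in these differences was not tested.

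By level per length, the order in the radiotherapy muscles was Bckdha (mean 85.4 TPM), Hibadh (50.5), Bckdk (45.8), Bcat2 (39.3), Bckdhb (24.4), Ivd (16.8), Hibch (11.2), Mccc1 (8.93), Dbt (2.99) and Ppm1k (0.553 TPM). The ranges over the 3 libraries did not overlap between Bckdha and Hibadh, Bcat2 and Bckdhb, Mccc1 and Dbt, or Dbt and Ppm1k, and those of the other neighbours did. In control muscle Bcat2 (57.6 TPM) stood just above Bckdk (56.8 TPM), which overlapped, and the rest of the order was the same. There the neighbours without overlap of these ranges were Hibch and Mccc1, and Dbt and Ppm1k. Exons of Bcat2, Bckdha and Mccc1 overlap other annotated genes on the opposite strand, and no source used here gives whether counting used strand. Of those neighbours the most abundant, Gm15952 beside Mccc1, reached 4.35 TPM in radiotherapy replicate 2 and 1.79 TPM in control replicate 2.

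Leaving out radiotherapy replicate 3 made the tested differences of 3 members pass. Without it, the adjusted p in limma was 0.0124 for Hibch (log2 difference -1.50), 0.0126 for Dbt (-1.37) and 0.0244 for Hibadh (-1.07), beside 27.6% of all features lower at that threshold. Over all the alternatives, the adjusted p ran from 0.0124 to 0.756 for Hibch, from 0.0126 to 0.746 for Dbt and from 0.0244 to 0.756 for Hibadh. Of the other pathway enzymes, 6 of 13 then passed as lower, namely Dld, Echs1, Aldh6a1, Acadsb, Acat1 and Mmut. So did 4 of the 8 enzymes of the amino group hand-off, 2 of the 5 regulators, 5 of the 12 dehydrogenase genes, 3 of the 15 citrate cycle genes and 7 of the 15 beta-oxidation genes. Rescaling each library without mitochondrial genes and the 20 most abundant genes left log2 differences of -1.25 for Dbt, -1.10 for Hibch and -0.68 for Hibadh. In that setting Bcat2 and Bckdha were each at -0.30 and Bckdk was at -0.087, and 3 members were lower without overlap, beside 16.5% of features, since Bckdhb then overlapped. Median-of-ratios scaling moved the median of all features by over 0.1, to 0.015. Relative to that median Dbt was at -0.95, Hibch at -0.84 and Hibadh at -0.43, and these 3 members were lower without overlap, beside 8.99% of features, while Bckdhb then overlapped.

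**Figure D5:**
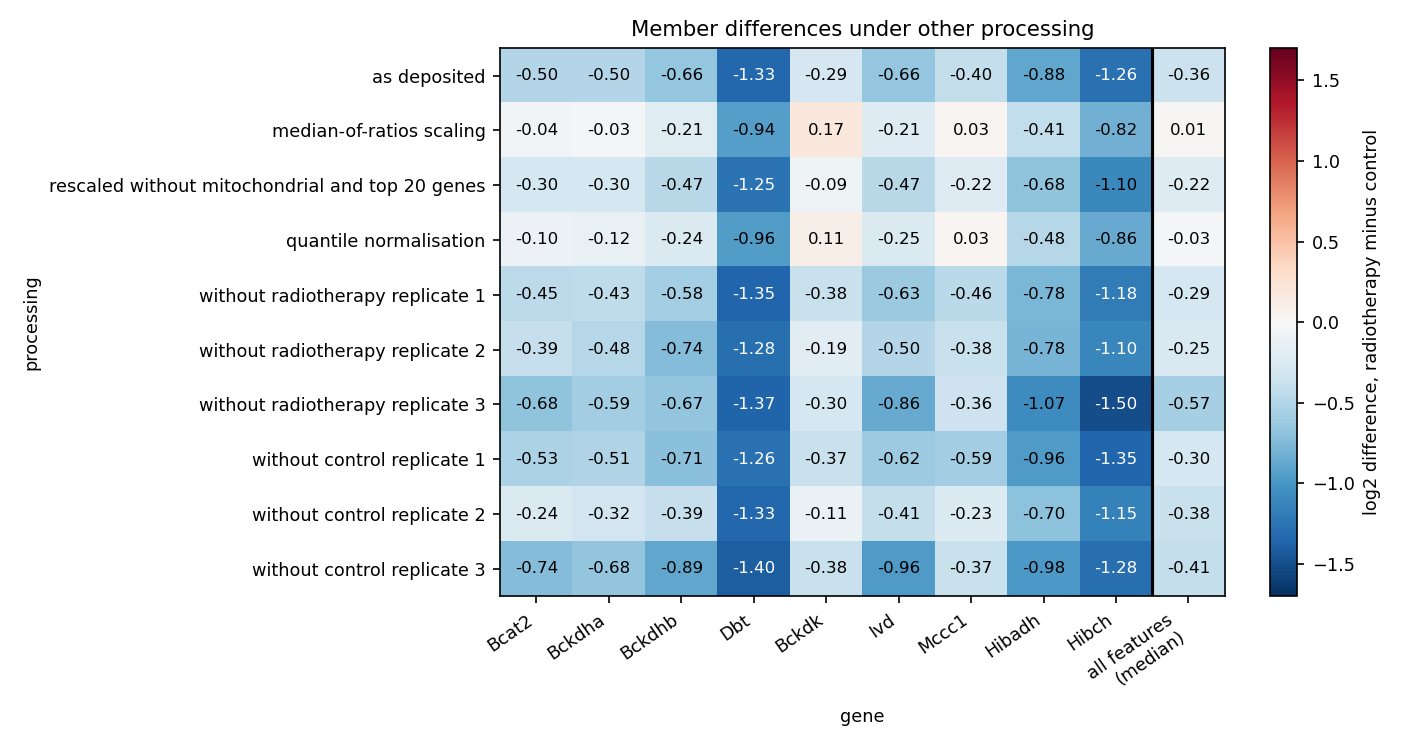
Log2 differences, radiotherapy minus control (colour and printed values), of the 9 tested members (columns) and the median of all features (last column) under 10 ways of processing (rows). Dbt and Hibch are below -0.8 in every row, while Bckdk and Mccc1 turn above 0 with median-of-ratios scaling and quantile normalisation.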

How the data were processed

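Total RNA was turned into TruSeq libraries and sequenced, per the labels' protocols. The authors deposited 1 table of TPM with a column per library. Named in the submitters' processing notes, without version or role, are HISAT2, StringTie, RSEM and the mouse build mm9. Read counts were not used here, so the depth behind each value is unknown and precision rests on the spread of 3 libraries per group.

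Groups come from the sample titles. The 11938 features whose mean over 6 libraries reached 1 TPM were tested with limma 3.58.1 in R 4.3.3 on log2(TPM + 1), empirical Bayes with a trend, no covariates, two-sided, adjusted over all tested features by Benjamini-Hochberg at 0.05. Differences are radiotherapy minus control and understate low genes. Ratios within a library used an exact permutation test of log2 ratios.

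The members and lists were chosen with earlier results of these data known. A pathway enzyme outside the members is not reported here and is left out of the list counts. All members are named; from the pathway, carrier and regulator lists any gene, from the other metabolic lists at most 4 with the smallest p, and from the marker lists Ckm and Col1a1 as defining markers; any gene named outside this is said to be so. The fit was repeated with pseudocounts 0.1 and 0.5, with a filter at 5 TPM or none, with 3 scalings, without the trend, with robust fitting, with the replicate number as a block and without each library in turn. Figures were drawn with matplotlib 3.10.9.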

Additional observations from a re-analysis of the deposited data

How the results depend on the processing

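The member differences kept their direction and side of the threshold in 137 of 144 repeats (16 alternatives for 9 members). The other 7 were the 3 calls without radiotherapy replicate 3 and 4 turns of sign. Bckdk was at 0.17 with median-of-ratios scaling and 0.11 with quantile normalisation, and Mccc1 at 0.033 and 0.030 with these. Changing the filter, trend, robust fitting or replicate block leaves the log2 difference as it was, so direction could not change in those repeats. A kept direction also covers values near 0, such as -0.044 for Bcat2 and -0.034 for Bckdha with median-of-ratios scaling. In each setting 0 members were past the threshold, except for 3 without radiotherapy replicate 3, so leaving out 1 library gave 0 to 3. The number of features past it, 7 as deposited, was 0 with no filter on low values and 4 under each of the replicate block, quantile normalisation and median-of-ratios scaling. Leaving out 1 library gave 1 to 3534, namely 3, 9 and 3534 without radiotherapy replicates 1, 2 and 3 and 4, 13 and 1 without control replicates 1, 2 and 3. The Bckdk to Ppm1k log2 ratio difference became -0.0042 with 1 TPM added, and that of Mccc1 to Mccc2 ran from -0.29 to 0.25 without single libraries. The cause of these shifts was not tested. Deviations of same-numbered libraries from their group means had correlations of -0.05, -0.11 and -0.20 across features. Since each group mean rests on 3 libraries, such correlations cannot settle whether the numbers pair the libraries. With the replicate block 0 members passed.

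With no counts, no detection limit can be given, and Ppm1k, at 0.46 to 1.17 TPM, is the member whose values are least certain. With 3 libraries a group, 0.1 is the smallest p an exact test of a ratio gives.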
